A study of Mus musculus with 18 samples.

Results

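Complex I genes were taken as the genes whose symbol begins with Nduf, and 47 of the 51 such genes among 27179 genes were listed in all 5 deposited tables. The members were split by name into 12 core genes (Ndufs and Ndufv), 27 accessory genes (Ndufa, Ndufb and Ndufc) and 8 assembly factors (Ndufaf). The 4 genes missing from the mutant table, Ndufa11b, Ndufb4b, Ndufb4c and Ndufs6b, are further copies of members. The core group by name is wider than the set of subunits conserved from bacteria: Ndufv1, Ndufv2, Ndufs1, Ndufs3, Ndufs7 and Ndufs8 belong to that set, Ndufs4, Ndufs5, Ndufs6 and Ndufv3 are supernumerary subunits, and Ndufs5-ps is a transcribed pseudogene.

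Complex I, the NADH:ubiquinone oxidoreductase, is the entry point of the mitochondrial respiratory chain. Its matrix arm takes electrons from NADH through a flavin and a chain of iron-sulphur clusters to ubiquinone, and its membrane arm pumps protons, which ATP synthase then uses. The conserved subunits carry the cofactors and the pumps, the supernumerary subunits surround and stabilise them, and assembly factors build the enzyme without staying in it. Neurons depend heavily on this pathway for ATP, and inherited loss of complex I subunits causes Leigh syndrome, a disease of brainstem and basal ganglia.

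RNA of FACS-sorted mouse spinal cells labelled as motor neurons (MNs) was sequenced in 18 samples. Control brachial cells of e12.5 embryos (6 samples) carried the Mnx1-GFP reporter, which marks MNs. Wild-type cells of p8 pups came from brachial, thoracic and lumbar cord (3 samples each) and were sorted by tdTomato of the Ai9 reporter, switched on where Cre is made from the Chat locus. Brachial cells of e12.5 Hoxc8 MNΔ embryos (3 samples) came from Olig2Cre::Hoxc8 fl/fl animals, in which Cre acts in MN progenitors, a population that later also gives rise to oligodendrocytes; these too were sorted by GFP. The cord pieces spanned C4 to T1 in the stage experiment and C7 to T2 in the mutant one. Several cords were pooled per replicate for the Mnx1-GFP and Ai9 animals of the stage experiment, so such a sample does not represent 1 animal, and for the Hoxc8 MNΔ samples no pooling is stated in the sources used here. The tables hold a base mean (the normalized read count averaged over samples), a log2 fold change and its standard error (SE), with no value per sample, so neither the depth nor the spread of single samples can be shown. A level per stage or region below is a value solved from base mean and fold change. A gene was called between stages or regions at a DESeq2 p that, adjusted again by Benjamini-Hochberg over all genes with a p, was under 0.05, and in the mutants at an unadjusted p under 0.05.

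The stages differed in which cells and which scale the values refer to. The e12.5 cells were sorted by Mnx1-GFP and the p8 cells by tdTomato, so stage and sorting reporter cannot be told apart. The paper adds that Mnx1 and Chat are also expressed in small groups of other spinal neurons. Of 8 MN markers 5 were higher at e12.5 and 3 were not called. Among the former were the transcription factors Mnx1, which went from a level of 3504 at e12.5 to 5.80, Isl1 (469 and 0.956) and Isl2 (122 and 0.706), together with Slc18a3 and Ret. Not called were Chat, the acetylcholine-synthesising enzyme, at 202 and 37.8, the choline transporter Slc5a7 at 182 and 266, and Prph at 2210 and 796. All 10 oligodendrocyte markers were higher at p8, and together they held 0.00964% of the summed levels at e12.5 and 43.9% at p8. All 9 microglia markers, all 6 oligodendrocyte precursor markers and 6 of 7 endothelial markers were also higher at p8, and 7 of 8 markers of other spinal neurons were higher at e12.5. Of 8 astrocyte markers 4 were higher at p8, of 4 red blood cell markers 2 were, and of 8 pericyte markers 0 were, with 1 higher at e12.5. In such bulk samples, fewer cells of a type and less RNA per cell cannot be told apart, and the part of these cells in the complex I values was not tested. The sums of all levels were also unequal, so that setting them equal moves every log2 value by 1.23 toward higher at e12.5. On this second scale, called the equal-sum scale here, 11.7% of all genes tested were called higher at p8 and 44.3% higher at e12.5. The sums rest on weights of 6 and 3 samples in the base mean. With 3 and 3, the replicate numbers the methods name, the shift was 0.68 and the share of oligodendrocyte markers at p8 38.6%.

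Most complex I genes were higher in brachial cells at p8 than at e12.5. Of the 47 members, 33 were called higher at p8, where 23% of all 18787 genes tested were, and 0 were called higher at e12.5, where 24.8% of all genes were. A further 10 members lay on the p8 side without passing and 4 on the e12.5 side. The median log2 ratio of e12.5 over p8 was -1.90 over the members, a 3.73-fold higher level at p8, and -0.02 over all genes whose base mean reached 10. With the sums set equal, 17 members were called higher at p8, against 11.7% of all genes, and 4 higher at e12.5, against 44.3%, with a median of -0.66. With equal sums under weights of 3 and 3 samples, these counts were 26 and 3, where 15.9% and 35% of all genes were called, and the median was -1.22. The summed levels of the members made up 0.234% of all levels at e12.5 and 0.350% at p8, and 0.179% and 0.369% under weights of 3 and 3 samples. All calls in this comparison rest on the deposited DESeq2 Wald tests.

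**Figure D1:**
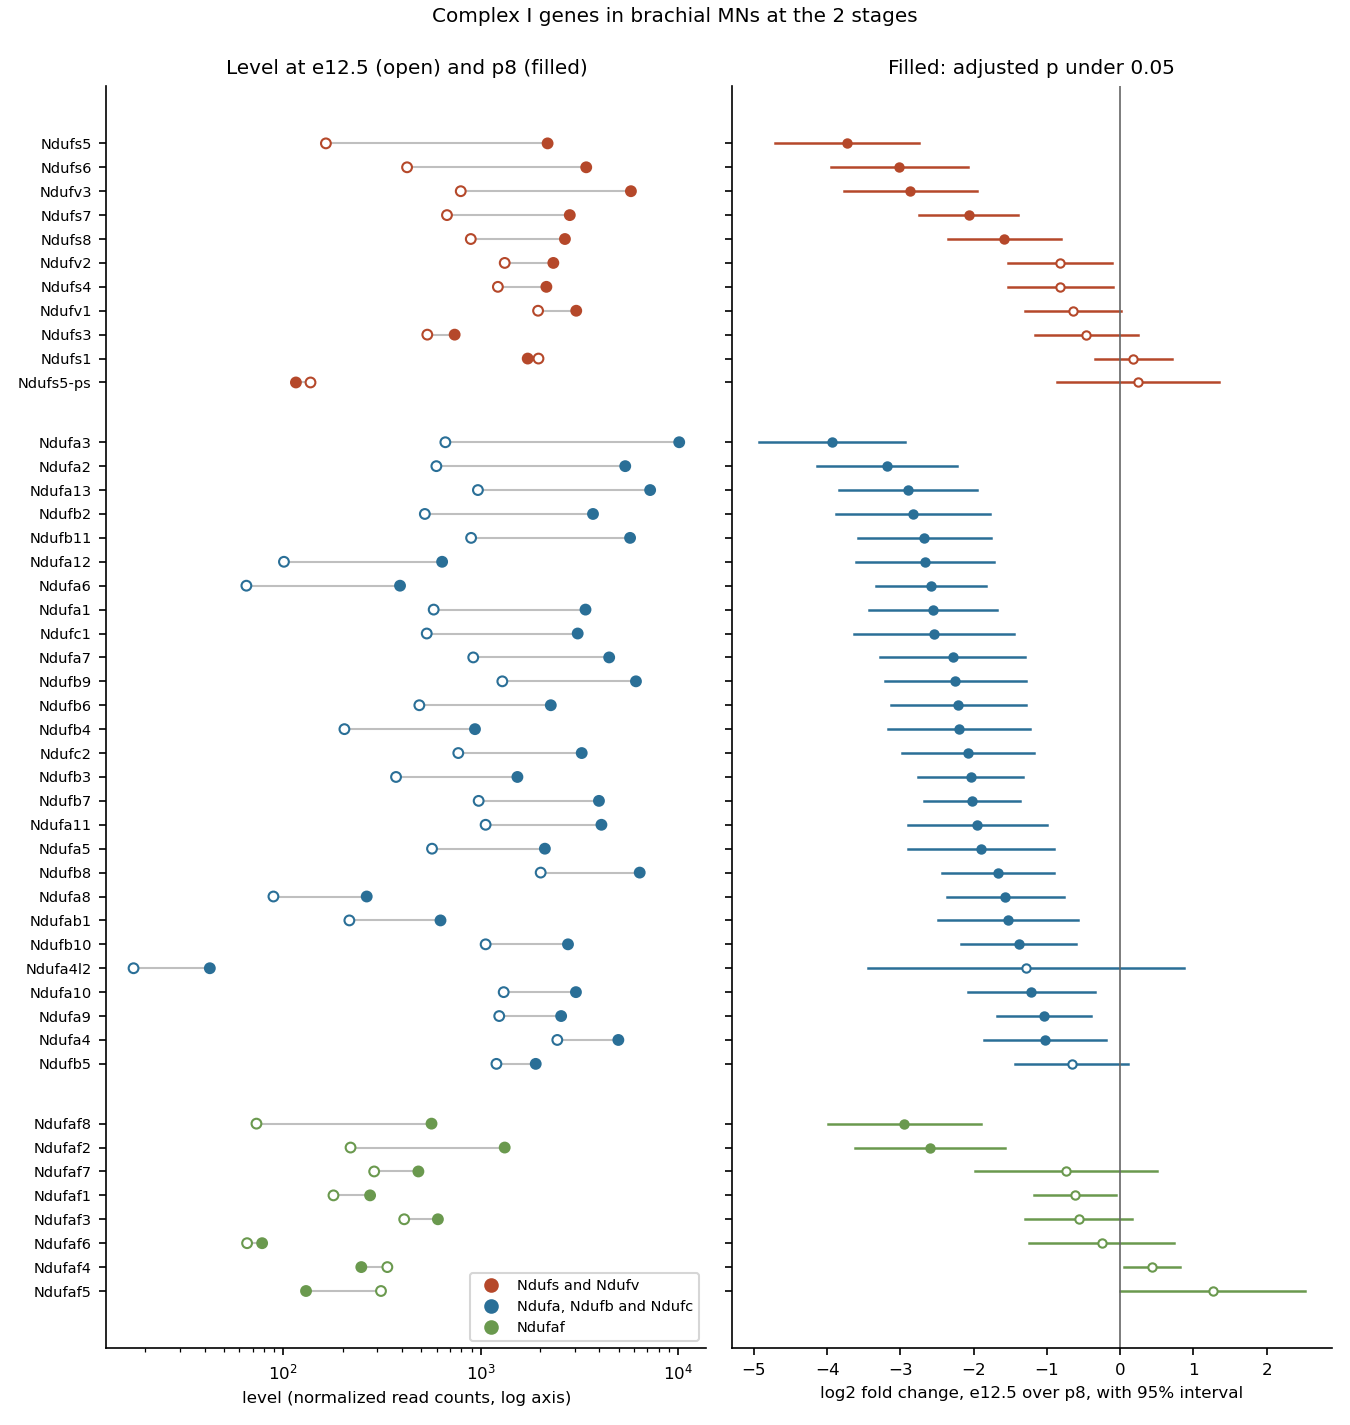
The left panel plots the level of each member reported here at e12.5 (open) and p8 (filled) in normalized read counts on a log axis. The right panel plots the log2 fold change of e12.5 over p8 with its 95% interval, filled where the adjusted p was under 0.05. Of the accessory genes 25 of 27 are filled, of the core genes drawn 5 of 11 and of the assembly factors 2 of 8, and values left of 0 are higher at p8. With equal sums every value lies 1.23 further to the right, and 11, 4 and 2 of these genes are called higher at p8.

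The shift was widest among the accessory subunits, the small proteins that coat the enzyme. Of these 27 genes, 25 were called higher at p8 and all 27 lay on that side, with a median log2 of -2.08. Of these, 11 were still called higher at p8 on the equal-sum scale, and none higher at e12.5, where 11.7% and 44.3% of all genes were. Ndufa3, a small membrane subunit (GRCm38, chromosome 7, 3617347 to 3620165), had the lowest adjusted p of all members: its level was 663 at e12.5 and 10134 at p8, a log2 of -3.93 ± 0.51 (SE; 95% interval -4.93 to -2.94; adjusted p = 1.13e-13 by the DESeq2 test). It was also the member with the highest level at p8, above Ndufa13 at 7220, whereas at e12.5 Ndufa13 (969) stood above Ndufa3. Ndufa13, also known as the cell death regulator GRIM-19, had a log2 of -2.90 ± 0.48. The position of Ndufa13 overlaps exons of Tssk6 over 375 bases, so reads there could belong to either gene.

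Ndufa6, which binds the complex's acyl carrier protein on the matrix arm, went from 65.1 to 391 with a log2 of -2.58 ± 0.38 and the third smallest p of the members. Its e12.5 level depends on the table. In the mutant comparison its base mean was 846, 13.0 times that level, where the median over all genes was 1.31. Ndufab1, that acyl carrier protein itself, also serves mitochondrial fatty acid synthesis. Its level was 216 at e12.5 and 627 at p8, a log2 of -1.53 ± 0.49. Ndufb8, a membrane arm subunit often used as a marker protein of assembled complex I, went from 2015 to 6393 with a log2 of -1.67 ± 0.39. Both moved less than the accessory median, and both lost their call on the equal-sum scale.

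Only 2 accessory genes were not called. Ndufb5, a membrane arm subunit, was at 1203 and 1902, with a log2 of -0.66 and an interval of -1.43 to 0.11. Ndufa4l2, a hypoxia-inducible paralog of Ndufa4, was the lowest member at both stages, at 17.5 and 42.5, and its interval of -3.44 to 0.88 was the widest among the members. Ndufa4 itself carries a complex I name but is now counted as a subunit of cytochrome c oxidase, complex IV. It was at 2446 and 4984, with a log2 of -1.03 ± 0.42 (adjusted p = 0.0342, DESeq2), and on the equal-sum scale the sign turned, to 0.21 without a call.

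Values within the core group were spread widely, with 6 of its 12 genes called higher at p8, where 23% of all genes were. The supernumerary Ndufs5, Ndufs6 and Ndufv3 had the largest differences of this group: Ndufs5, a subunit of the intermembrane space side, went from 165 to 2184 (log2 -3.73 ± 0.50, adjusted p = 9.57e-13, DESeq2), Ndufs6 from 424 to 3427 (log2 -3.01 ± 0.48) and Ndufv3 from 793 to 5770 (log2 -2.86 ± 0.46). All 3 kept their call on the equal-sum scale. The fourth supernumerary gene of the group, Ndufs4, a frequent site of Leigh syndrome mutations, was at 1223 and 2153 with a log2 of -0.82 ± 0.36. Its adjusted p was 0.0526 as adjusted here and 0.0458 as deposited from DESeq2, so that its call depends on the adjustment.

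Among the 6 conserved core subunits reported here, which include the carriers of the flavin and the iron-sulphur clusters, 2 were called higher at p8. Of all genes tested, 23% were called so. Ndufs7, next to the ubiquinone site, rose from 676 to 2829 (log2 -2.07 ± 0.34) and Ndufs8 from 892 to 2673 (log2 -1.58 ± 0.39). Ndufv1, the NADH-binding flavin subunit, was at 1954 and 3050 (log2 -0.64, interval -1.30 to 0.01), and its partner Ndufv2 at 1325 and 2335 (log2 -0.82, DESeq2 p adjusted here to 0.0506 and deposited as 0.0440). Ndufs3 was at 537 and 739 (log2 -0.46, interval -1.16 to 0.24). Ndufs1, the largest subunit of the matrix arm, lay on the other side, at 1964 and 1732, with a log2 of 0.18 and an interval of -0.35 to 0.71. It was one of the 4 members called higher at e12.5 on the equal-sum scale.

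These 6 genes thus had a median log2 of -0.73 with 2 called, and the 29 structural subunits outside the conserved core a median of -2.21 with 27 of 29 called. Of all genes tested, 23% were called higher at p8. The sets overlapped, since Ndufs7 and Ndufs8 lay lower than the supernumerary Ndufs4. On the equal-sum scale the medians became 0.50 and -0.98. The calls higher at p8 fell to 1 of 6 (Ndufs7, log2 -0.83), since Ndufs8 lost its call (log2 -0.35, adjusted p = 0.491 from the DESeq2 SE), and to 14 of 29. Of all genes tested, 11.7% were called higher at p8 on the equal-sum scale. With each value set against genes of like length the medians were -0.13 and -1.05. On that scale 1 and 15 were called higher at p8, where 22.9% of all genes were. The difference between these sets was not tested. By position in the enzyme, all 9 subunits of the proximal membrane arm were called higher at p8 (median log2 -2.54), 9 of 10 of the distal membrane arm (-2.12), 6 of 10 of the NADH-binding module (-2.44) and 5 of 6 of the ubiquinone module (-1.31). These counts were 5, 4, 5 and 1 on the equal-sum scale, where Ndufs1 of the NADH-binding module was called higher at e12.5. The members' levels were spread more widely at p8: per kilobase of exon, the SD of the log2 level over the 46 members with a length was 1.66 at e12.5 and 2.15 at p8. Over all genes whose base mean reached 10 and whose length was known, it was 2.96 and 3.19.

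Assembly factors were spread from -2.95 to 1.26 on the log2 scale. Of the 8 Ndufaf genes 2 were called higher at p8 and 0 at e12.5, where 23% and 24.8% of all genes were. Their median log2 was -0.59. Ndufaf2, a chaperone that binds a late intermediate lacking the NADH-binding module, went from 219 to 1324 (log2 -2.59 ± 0.52), and Ndufaf8, the partner of Ndufaf5, from 73.3 to 564 (log2 -2.95 ± 0.53). Ndufaf3, at 410 and 608, and Ndufaf7, a methyltransferase, at 289 and 484, did not pass. Ndufaf4 and Ndufaf5 lay on the e12.5 side: Ndufaf4, which works with Ndufaf3, was at 337 and 249 (log2 0.44 ± 0.20, DESeq2 p adjusted here to 0.0534 and deposited as 0.0465), and Ndufaf5, which modifies Ndufs7, at 313 and 131 (log2 1.26 ± 0.64, adjusted p = 0.0951, DESeq2). The partners Ndufaf5 and Ndufaf8 therefore stood on opposite sides of 0. Both Ndufaf4 and Ndufaf5 were called higher at e12.5 on the equal-sum scale, where 44.3% of all genes were. The median of the 8 genes turned to 0.64 there.

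Calls among the assembly factors with other names went both ways. Of 12 in the table, 2 were called higher at p8 and 2 at e12.5, where 23% and 24.8% of all genes were. The median log2 was -0.01. The pair higher at e12.5 was Timmdc1 (475 and 98.1) and Tmem186 (446 and 122), both factors of membrane arm assembly. Those higher at p8 were Tmem126b (142 and 297), of the same assembly complex, and 9530068E07Rik (1561 and 3671). The latter carries the synonym Kct2 in RefSeq and is not known as an assembly factor. Without it 1 of 11 was higher at p8 and 2 at e12.5, with a median of 0.01. Lyrm2, at 647 and 1126, did not pass. With equal sums 0 of the 11 were higher at p8 and 7 at e12.5, where 11.7% and 44.3% of all genes were.

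Genes of retrocopies add uncertainty for some members, since short reads can be divided among near-identical copies. The pseudogene Ndufs5-ps was at 138 and 116 (log2 0.25, interval -0.86 to 1.35) while Ndufs5 differed 13.3-fold. Ndufs6b, a pseudogene, went from 49.9 to 395 (log2 -2.99), close to the value of Ndufs6, and Ndufa11b from 18.2 to 215 (log2 -3.57). Exons of 10 members overlap those of another gene, among them Ndufb5 (with Mrpl47), Ndufb6 (with Smim27) and Ndufs1 (with Ino80dos), and the strand setting of the counting is not given in the sources used here. Of all 47 members 33 were called higher at p8, and 28 of these calls remained with the overlapping members left out. Of all genes tested, 23% were called higher at p8.

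The motif of the transcription factor NRF1, a regulator of nuclear genes for respiratory subunits, was looked for in the 250 bases before each gene's start, since most of these genes moved together. RefSeq promoter entries (GRCm38.p6) matched 40 members. The letters GCGCANGCGC were present on either strand in 7 of them (17.5%) and in 5.84% of 17492 protein-coding genes. The windows below run 5′ to 3′ on the gene's strand with 25 bases on either side where the upstream region allows, and capitals mark the motif or its reverse complement. They are shown because genes that share these letters differed in how far, and to which side, they lay between stages.
Ndufs5 (chr4:123718250-123718309, minus strand): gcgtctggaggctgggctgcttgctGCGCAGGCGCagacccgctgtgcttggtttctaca
Ndufs6 (chr13:73328483-73328523, minus strand): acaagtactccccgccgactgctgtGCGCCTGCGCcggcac
Ndufb4 (chr16:37654413-37654472, minus strand): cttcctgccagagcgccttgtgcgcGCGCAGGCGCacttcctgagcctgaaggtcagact
Ndufa11 (chr17:56717677-56717736, plus strand): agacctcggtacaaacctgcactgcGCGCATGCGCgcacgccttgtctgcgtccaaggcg
Ndufa5 (chr6:24527682-24527741, minus strand): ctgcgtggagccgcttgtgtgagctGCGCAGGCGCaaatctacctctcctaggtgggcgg
Ndufa8 (chr2:36049339-36049393, minus strand): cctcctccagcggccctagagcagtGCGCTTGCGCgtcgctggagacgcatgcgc
Ndufaf4 (chr4:24897945-24898004, plus strand): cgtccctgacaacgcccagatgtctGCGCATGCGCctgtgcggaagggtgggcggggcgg
In this order the log2 values of e12.5 over p8 were -3.73, -3.01, -2.20, -1.95, -1.90, -1.57 and 0.44. Ndufb4 held 3 matches and is shown with the middle one. The letters CCGGAAG, bound by ETS factors such as GABP, were in 5 members (and in 10.2% of all genes), AANATGGCG, bound by YY1, in 2 (1.56% of all genes), and TCAAGGTCA, bound by oestrogen-related receptors, in 0 (0.36% of all genes). A match describes these letters only, and promoters without one can bind the factors through other sequences. Among regulators themselves, 0 of 8 with a p were called higher at p8: Nrf1 was at 793 and 683 and Gabpb1 at 875 and 429, both without a call, and Yy1 was higher at e12.5 (889 and 204). Of the 8, 7 were called higher at e12.5 on the equal-sum scale, where 44.3% of all genes were.

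The stage differences went along with the length of the genes. Over all 14719 genes whose base mean reached 10 and whose exonic length was known, Spearman's rho between length and log2 of e12.5 over p8 was 0.29, a description across genes that share their libraries. Over the 46 members it was 0.63. Most complex I transcripts are short: 32 members lay in the shortest decile of all genes, where the median log2 of all genes was -1.24 and that of the members -2.20, and where 52.5% of all genes were called higher at p8. Genes of at most 1000 bases had a median of -1.47 over all 872 and of -2.23 over 24 members, and longer genes had 0.05 over all 13847 and -0.80 over 22 members. The longer class is not matched in length, since all members lay below the longest deciles. In the second decile (1258 to 1762 bases) the median was -0.69 over all genes and -0.76 over 8 members. With each log2 value set against the median of its own length decile, a comparison chosen after seeing the data, 18 members were called higher at p8 and 1, Ndufaf5, higher at e12.5. Of all 16906 genes tested in this way, 22.9% were called higher at p8 and 25.9% higher at e12.5. The median exonic length was 1354 bases for the 6 conserved core genes and 763 for the other structural subunits, so the contrast between those sets goes along with length as well.

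**Figure D2:**
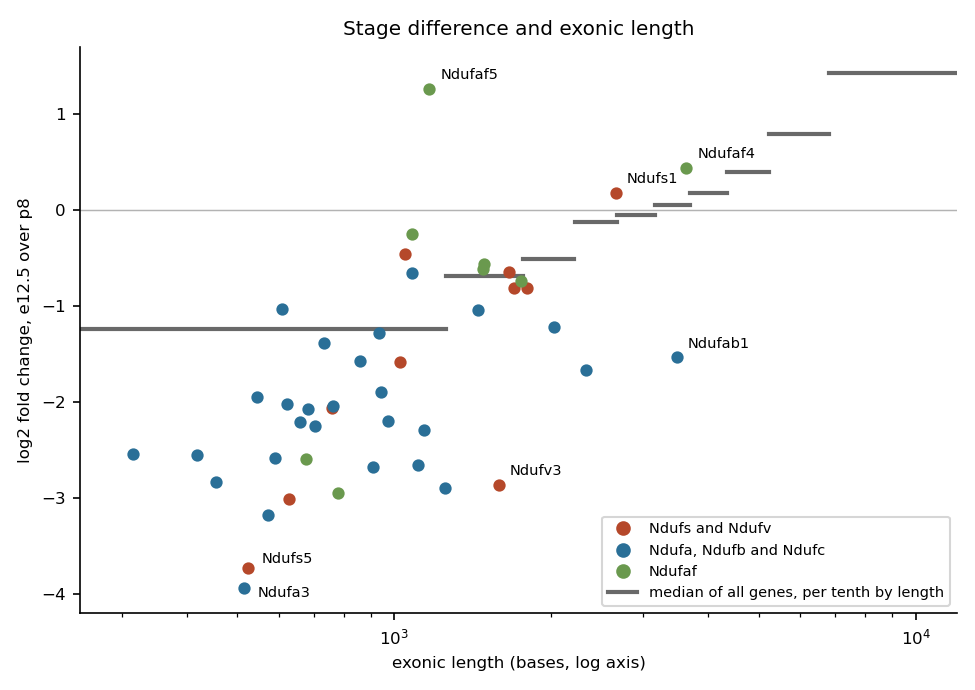
Each point is a member reported here, placed by exonic length in bases (log axis) and by log2 fold change of e12.5 over p8, coloured by class. Grey lines are the medians of all genes in deciles by length, which go from -1.24 in the shortest to 1.43 in the longest decile, cut here at the ends of the axis. Of the 45 members drawn 35 lie below the line of their decile and 10 above it, among the latter 5 of the 8 Ndufaf genes, 3 core genes (Ndufs1, Ndufs3 and Ndufv1) and 2 accessory genes (Ndufa4 and Ndufb5), and on the equal-sum scale points and lines alike are 1.23 higher.

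The other parts of the respiratory chain lay largely on the same side. Of all genes tested, 23% were called higher at p8 and 24.8% higher at e12.5. The 7 complex I subunits of the mitochondrial genome were all called higher at p8, with a median log2 of -1.67, and 2 of 7 on the equal-sum scale. ND1 was at 23359 and 74254 and ND5 at 15718 and 61803, far above any nuclear subunit of complex I at both stages. ND3 and ND4L were listed at 17.0 and 18.3 at e12.5, and at 349 and 235 at p8. All 4 genes of complex II were called higher at p8 (median -1.32), with Sdha at 2546 and 5478 and Sdhb at 1581 and 4578. For complex III it was 7 of 9 (median -1.25), with Uqcrc1 at 3021 and 6139 and Uqcrq at 1007 and 9921, and for complex IV 12 of 15 (median -2.65), with Cox4i1 at 4420 and 27684 and Cox6a1 at 2210 and 23253. For ATP synthase it was 11 of 16 (median -1.39), with the catalytic subunit Atp5b at 17794 and 27705 and Atp5a1 at 14673 and 11390, neither called. On the equal-sum scale 1, 2, 9 and 1 genes of complexes II, III, IV and ATP synthase were called higher at p8. Higher at e12.5 were 0, 2, 2 and 3. Of all genes tested, 11.7% and 44.3% were called so. Set against genes of like length, 3, 2, 9 and 2 were higher at p8 and 0, 0, 2 and 1 at e12.5. On that scale 22.9% and 25.9% of all genes were. The medians there were -1.08, -0.31, -1.41 and -0.40. For the mitochondrial ND genes it was -0.86, with 3 of 7 higher at p8.

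Genes for other mitochondrial functions were also called in both directions. Of 16 genes for import, channels, chaperones and carriers, 4 were called higher at p8 and 5 at e12.5. Of all genes tested, 23% and 24.8% were called so. The median log2 of the 16 genes was 0.27. Slc25a4, the ADP/ATP carrier, was at 8835 and 9693, and Cs, the citrate synthase used as a measure of mitochondrial content, at 4494 and 3630 (log2 0.31, adjusted p = 0.0367, DESeq2). On the equal-sum scale 0 were higher at p8 and 11 at e12.5, where 11.7% and 44.3% of all genes were. The median exonic length of these 16 genes was 1862 bases, against 956 for the members. Set against genes of like length, their median was 0.36 and that of the members -0.79.

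**Figure D3:**
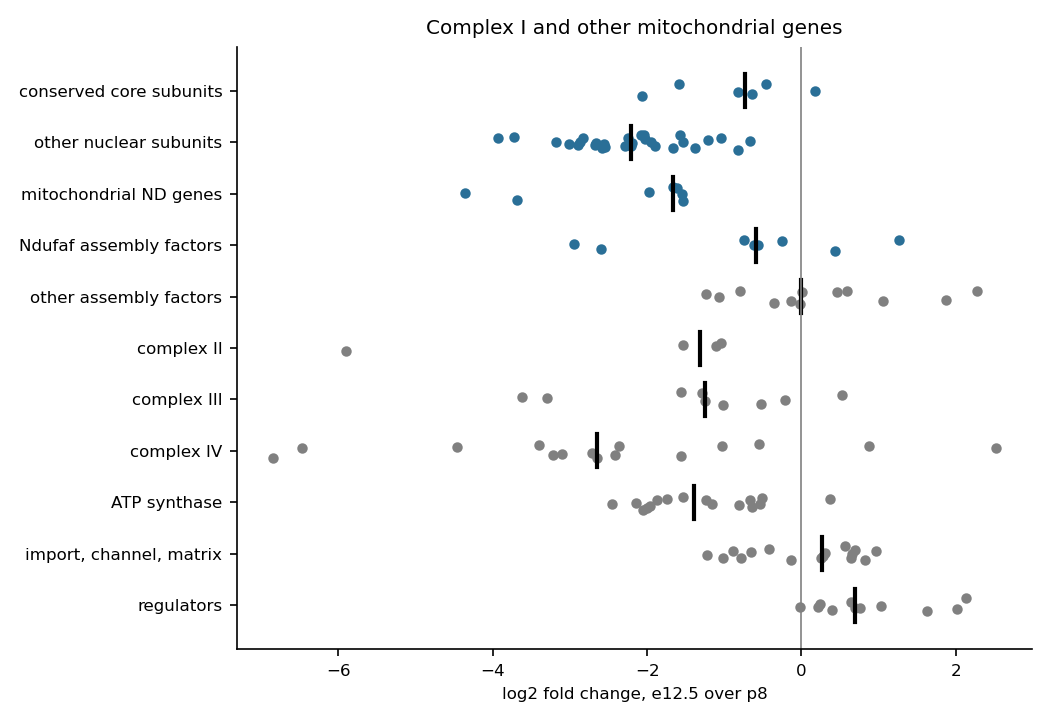
Points are genes and black bars medians of the log2 fold change of e12.5 over p8, in rows for complex I (blue) and other mitochondrial lists (grey). The bars lie at -0.73 for the 6 conserved core genes, -2.21 for the other nuclear subunits, -1.67 for the mitochondrial ND genes and 0.27 for genes of import, channels and matrix. On the equal-sum scale all points lie 1.23 further right, which brings the medians of the 6 conserved core and the 8 Ndufaf genes above 0 while Ndufs7, Ndufs8, Ndufaf2 and Ndufaf8 stay below it.

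At p8 no complex I gene was called between regions. Each regional table compares 1 region with the other 2 over the same 9 samples, so the 3 results are not independent. Of the 47 members 0 passed in the brachial, thoracic or lumbar table by the DESeq2 test at an adjusted p under 0.05, where 0.261%, 0.011% and 0.0219% of all genes did, and 0 had an unadjusted p under 0.05, where 6.54%, 1.45% and 2.88% did. The smallest p values were 0.293 for Ndufaf5 in the brachial table, 0.216 for Ndufaf3 in the thoracic and 0.151 for Ndufa6 in the lumbar table, all unadjusted values of DESeq2. Intervals were wide, with median half-widths of 1.14, 1.07 and 1.12 on the log2 scale. Regional differences of 2-fold and more could therefore go uncalled for most members. On simulated data with the SEs of the brachial table, 4.48% and 34.3% of genes with a log2 of 1 and 2 were called.

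The lumbar level was the highest of the 3 regions for 40 members, and 46 of 47 had a log2 above 0 in the lumbar table, with a median of 0.27 against -0.05 over all genes. Of the members, 33 lay below 0 in the brachial and 39 in the thoracic table, with medians of -0.12 and -0.16 against 0.02 and -0.14 over all genes. Members share their libraries, so these counts are not counts of independent observations. The ratio of the highest to the lowest region had a median of 1.28 over the members. Ndufa3 was at 5533 in brachial, 4901 in thoracic and 6924 in lumbar cells, and Ndufs1 at 977, 1041 and 1104. The order of neighbouring regions was within the intervals for both.

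Ndufa4l2 was the only member with a ratio above 2: it was at 25.9 in brachial, 16.8 in thoracic and 49.3 in lumbar cells, and its lumbar log2 of 1.22 had an interval of -0.98 to 3.43. Ndufa6 followed, at 223, 250 and 434. Pericyte markers, which as a list held 0.00606%, 0.0071% and 0.0191% of the levels in brachial, thoracic and lumbar cells, also had their highest share in lumbar cells, with a median log2 of 1.76 there. Red blood cell markers held 2.17 as their lumbar median and microglia markers -1.10. Oligodendrocyte markers made up 43.0%, 42.7% and 46.0%. Their part in the complex I values was not tested. The mitochondrial ND genes had medians of 0.28, -0.81 and 0.42 in the brachial, thoracic and lumbar tables, with 0 of 7 called in each and 0 of 7 with an unadjusted p under 0.05 in each.

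**Figure D4:**
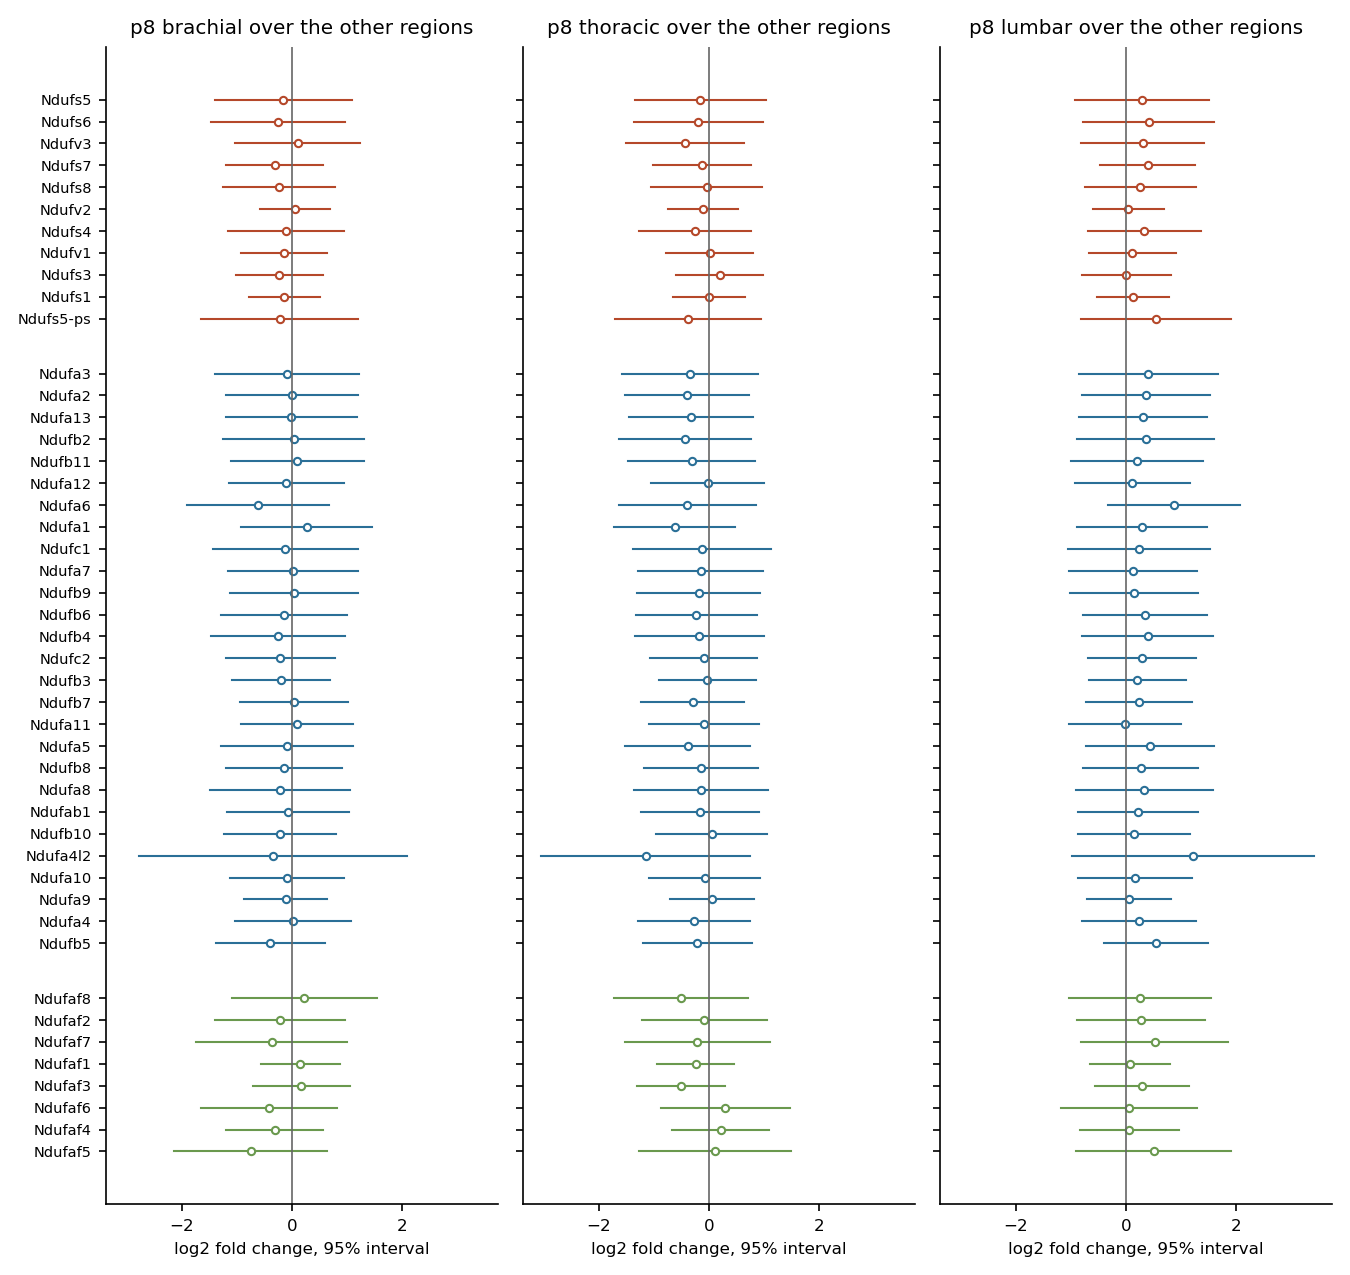
The 3 panels plot the log2 fold change of each member reported here in p8 brachial, thoracic and lumbar cells over the other regions, with 95% intervals. All intervals cross 0. The lumbar points lie to the right of 0 for all members drawn but Ndufa11, and Ndufa4l2 has the widest interval in each panel.

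The mutant comparison asks what loss of Hoxc8, a Hox factor of brachial MNs, does at e12.5. The targeted gene was not called lower in the samples labelled Hoxc8 MNΔ: Hoxc8 had a base mean of 19301 and a log2 of control over mutant of 0.10 (interval -0.06 to 0.26, adjusted p = 1, DESeq2). The paper, by contrast, lists Hoxc8 among its downregulated transcripts. By immunostaining it also found no Hoxc8 protein in mutant MNs at e12.5. The deposited values and the paper's list thus differ on this gene. Whether the counted Hoxc8 transcript lies outside the deleted part is not given in the sources used here. The fold changes of this table are drawn toward 0, since the largest absolute log2 of any transcript was 0.42, and the median SE was 0.01 for base means under 1 against 0.08 for base means of 100 to 1000. Intervals below are therefore on that scale and do not bound the true change.

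No complex I gene was called between control and mutant cells after adjustment. Of 45 members with a p, 1 had an unadjusted p under 0.05 by the DESeq2 test and 0 an adjusted one, against 0.871% and 0.0357% of all 19634 transcripts tested. An unadjusted p under 0.05 with a higher level in controls was found for 1 member and for 0.453% of all transcripts. The control level was higher for 22 and lower for 23 members, with a median log2 of 0.00. Over the 41 members whose base mean reached 10, the log2 ran from -0.12 (Ndufa5) to 0.10 (Ndufa4l2), and no 95% bound passed -0.28 or 0.23. The abundant subunits lay close to 0: Ndufa4, with a base mean of 2702, had a log2 of -0.03 and Ndufv1 (2474) of -0.04. Ndufa3 and Ndufs6, which differed widely between stages, had 0.05 and 0.02 here, Ndufs6 at a base mean of only 5.15.

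The 1 member under the unadjusted threshold was Ndufa4l2, higher in controls with a base mean of 24.1, a log2 of 0.10 (interval 0.00 to 0.20), an unadjusted p of 0.0475 and an adjusted p of 1 by DESeq2. It was not called after any of the adjustments run, nor with values re-centred on the median of all transcripts. Ndufa4l2 is known from hypoxia and from mural cells of vessels. In the same table the pericyte markers Rgs5 (log2 0.38, adjusted p = 0.0294, DESeq2) and Cd248 (log2 0.32, adjusted p = 0.0407, DESeq2) were higher in controls. Of the 8 pericyte markers, 5 had a p, with a median log2 of 0.07 and 2 called after adjustment. Pdgfrb, Kcnj8 and Abcc9 were at a base mean of 0 here, although their e12.5 levels in the stage comparison were 223, 38.2 and 132. The part of such cells in the Ndufa4l2 value was not tested.

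Some members were nearly or wholly without counts in the mutant table. Ndufs1 and Ndufs8 were listed at a base mean of 0 and had no p, although their e12.5 levels in the stage table were 1964 and 892. Ndufv2 (1.49), Ndufa7 (2.04) and Ndufs6 (5.15) were also under a base mean of 10. All 5 are among the 8 members with more than 1 transcript in this table. Of the 39 members with a single transcript, 1 was that low, Ndufs5 at 0.15, while its pseudogene was at 261. Over all genes with an e12.5 level of at least 100, 56.0% of 3749 with several transcripts and 0.611% of 6546 with 1 transcript had a base mean under 10. The mutant table thus gives no reading for Ndufs1 and Ndufs8, and hardly one for Ndufv2, which together with Ndufv1 form much of the electron path of the matrix arm. In the other direction, Ndufa6 (846) and Ndufa8 (1177) had base means 13.0 and 13.2 times their e12.5 levels in the stage table, where the median over all genes was 1.31. Which e12.5 control samples entered each of the 2 tables is not given in the sources used here, and the stage table counts genes and the mutant table transcripts.

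**Figure D5:**
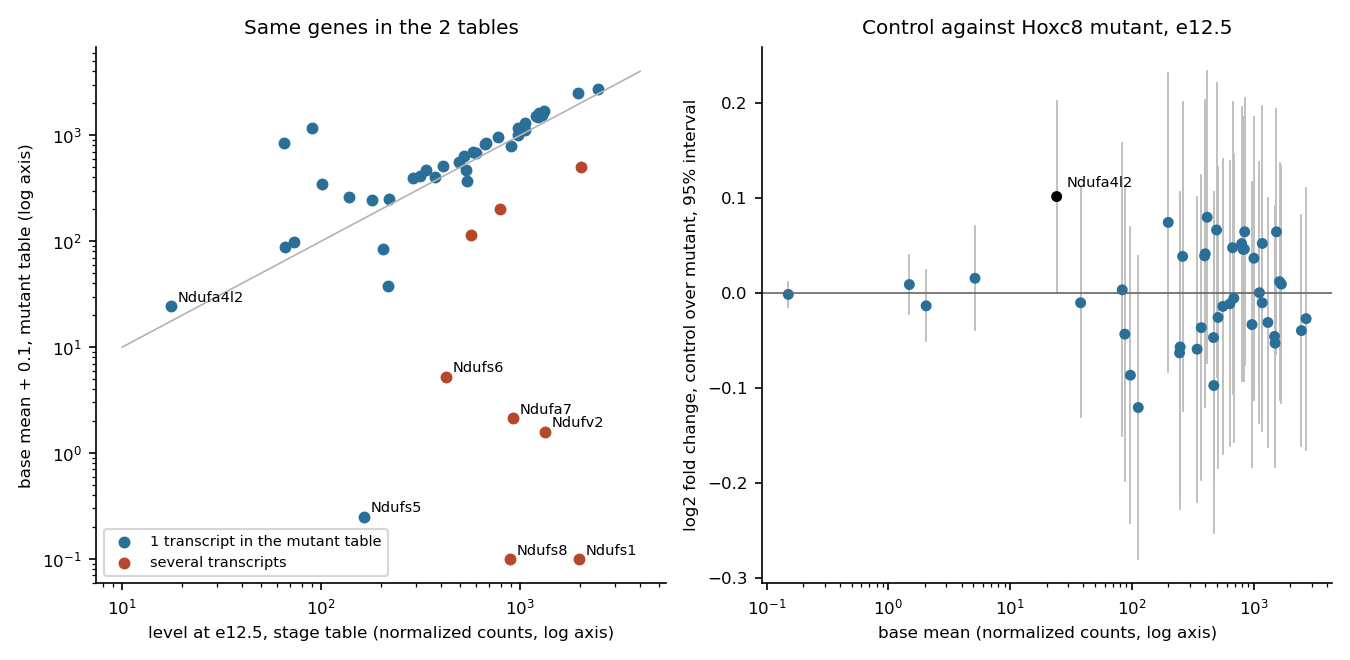
The left panel plots the base mean of each member reported here in the mutant table plus 0.1 against its e12.5 level in the stage table, both on log axes, with members of several transcripts in red and the line of equal values in grey. Ndufs1 and Ndufs8, with a base mean of 0, sit at 0.1 on this axis. The right panel plots the log2 fold change of control over mutant with 95% intervals against base mean, and only Ndufa4l2 (black) had an unadjusted p under 0.05.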

How the data were processed

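RNA was measured in 18 samples, grouped by stage, region and genotype from their labels. The authors aligned unique reads (50-nucleotide, single-end) to GRCm38/mm10 with a program printed as HISET2 in the methods and as HISAT in the submitters' processing notes, obtained counts from featureCounts and fitted DESeq2 models in Galaxy; versions are not given in the sources used here. The deposited base mean is a signal, the mean over samples of size-factor normalized counts. The log2 fold change and its SE, and each two-sided Wald p-value, were deposited by the authors, and the tables hold nothing else apart from identifiers, a Wald statistic and an adjusted p-value. Since these are the only values, they are reported here as the authors' fits.

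Symbols, positions and promoters came from RefSeq (GRCm38.p6) and exonic lengths from GENCODE M21. A symbol was found for 93.0% of genes and 99.2% of transcripts. In the mutant table the transcript with the highest base mean stood for a gene. P-values were adjusted again by Benjamini-Hochberg over all features with a p-value, and 95% intervals are normal intervals of the SE. Stage levels were solved from base mean and fold change with weights of 6 and 3 samples, although the methods name 3 replicates at e12.5 and the choice among the 6 is not labelled, and regional levels from each region's own table. The weights enter levels and their sums but not the fold change. The tables share samples: the regional tables all 9, and the stage and regional tables the p8 brachial samples. Whether the stage and mutant tables share e12.5 controls is not given in the sources used here.

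One member stays in the counts over all members and is not reported here singly. Members and lists were chosen with earlier results of these data known. Named were, per class, the 4 members of highest base mean, the 3 of smallest p in each direction where called, members under a p of 0.05 in the mutant table, members against the majority of their class, Ndufa4 and Ndufa4l2, members with no p and the 2 genes of highest base mean per pathway list, and further genes were named after their values were seen. The 8 pathway lists and 9 marker lists were each counted in the report. On simulated data with the SEs of the stage table, 19.4%, 61.2% and 95.5% of genes with a log2 of 1, 2 and 4 were called, and for the brachial comparison the shares were 4.48%, 34.3% and 80.3%. In the simulated stage data 67, 67 and 66 of 13288 genes were given these changes. Between the real stages far more genes were called (23% higher at p8 and 24.8% at e12.5), and the adjusted threshold depends on that number. The simulated stage shares therefore do not describe how often such changes were called between stages. The work was done in pandas 2.3.3 and scipy 1.17.1 under Python 3.11.15, with plots by matplotlib 3.10.9.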

Additional observations from a re-analysis of the deposited data

How the results depend on the processing

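No paired analysis was possible because the tables hold no values per sample, and leaving out a replicate was not possible for the same reason. Of the 47 members, the count called higher at p8 was 33 as reported, 35 with the adjusted p as deposited (Ndufs4 and Ndufv2 added), 36 with a base mean of at least 10, 33 with the median of all genes set to 0, 32 and 22 with a fold over 2 and 4, and 17 with Bonferroni's adjustment (all 17 calls). Of all genes tested, the shares called higher at p8 were 23%, 26.8%, 31.8%, 22.7%, 21.2%, 14.8% and 11.1% in the same order. Calls higher at e12.5 were 0, and 1 (Ndufaf4) with the deposited adjustment, with the base mean filter and with re-centring. In those settings 29.1%, 31.6% and 25.1% of all genes tested were called higher at e12.5. With equal summed levels 21 were called, 17 higher at p8 and 4 at e12.5, and the share of all calls higher at p8 went from 48.1% to 20.8%. Without oligodendrocyte and precursor markers in the sums the shift was 0.39, with 29 higher at p8 and 2 at e12.5, and the share was 37.9%. Of all genes tested, 11.7% and 44.3% were called higher at p8 and at e12.5 with equal summed levels, and 18.6% and 30.5% without these markers. Set against genes of like length, 19 were called, 18 and 1, where 22.9% and 25.9% of all genes were. Weights of 3 and 3 or of 6 and 2 samples cannot change a fold but moved the members' median level from 2335 to 2120 and 2733 at p8 and from 579 to 458 and 684 at e12.5, and the shift of equal sums, in alternatives chosen after seeing the data, to 0.68 and 1.58. With equal sums 26 members were then higher at p8 and 3 at e12.5 under 3 and 3 (31.2% of all calls higher at p8), and 11 and 11 under 6 and 2 (16.1%). Of all genes tested, 15.9% and 35% were called higher at p8 and at e12.5 under 3 and 3. Under 6 and 2 these were 9.51% and 49.6%.

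Of the members reported singly, 12 changed the sign of their log2 value with equal summed levels: Ndufa9 0.19, Ndufa10 0.018, Ndufa4 0.21, Ndufv2 0.42, Ndufs4 0.42, Ndufaf1 0.62, Ndufv1 0.59, Ndufb5 0.57, Ndufaf3 0.67, Ndufs3 0.77, Ndufaf7 0.49 and Ndufaf6 0.98, none of them called. With weights of 3 and 3 samples 6 did: Ndufaf1 0.065, Ndufv1 0.039, Ndufb5 0.020, Ndufaf3 0.11, Ndufs3 0.22 and Ndufaf6 0.43, none of them called. Without the oligodendrocyte markers only Ndufaf6 did (0.14). Against genes of like length 7 did: Ndufa4 0.21, Ndufaf1 0.069, Ndufv1 0.043, Ndufb5 0.58, Ndufaf3 0.12, Ndufs3 0.78 and Ndufaf6 0.99, none of them called. The regional counts were 0 under each alternative run. The 1 mutant call, Ndufa4l2, was 0 under the deposited adjustment, Bonferroni's, an adjustment over transcripts with a base mean of at least 10, re-centring, an adjusted p under 0.05 and an adjustment over 1 transcript per gene, and 1 with every transcript counted. The absence of values per sample and the wide SEs at p8 limit what these tables can show.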
